A study of Mus musculus with 4 samples.

Results

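The cytosolic ribosomal protein genes are described here on 4 arrays of brain and spinal cord tissue from transgenic and wild-type mice aged 24 weeks. A probe was taken as a member when the array's own gene name was that of a ribosomal protein of the large subunit (Rpl and a number, or Rplp0 to Rplp2) or of the small subunit (Rps and a number, or Rpsa), without the ribosomal S6 kinase names that start with Rps6k. This rule found 186 of 56605 probes, which stand for 87 of 26782 named genes. Of these genes, 53 belong to the large subunit and 33 to the small one. The remaining name, Rps19bp1, fits the rule but encodes a protein that binds Rps19 and is not part of the ribosome. Of the members, 26 genes had 1 probe and 61 had several, up to 5.

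The study set transgenic (Tg) mice, described as a model of multiple system atrophy, against wild-type (WT) mice in 2 tissues: brainstem with cerebellum, and spinal cord. Both genotypes share a mixed background of C57BL/6, 129 and C3H. The sample titles of all 4 groups start with PLP. The labels do not spell out the transgene, its promoter or the line, nor do they give the number of mice behind each sample. Multiple system atrophy is a neurodegenerative disease in which protein deposits build up in oligodendrocytes, the myelin-forming cells.

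Ribosomal proteins and ribosomal RNA form the large subunit, which joins amino acids, and the small subunit, which reads the messenger RNA. The stalk proteins Rplp0, Rplp1 and Rplp2 reach out from the large subunit and recruit elongation factors. Cells keep the amounts of the different ribosomal proteins close to one another, and their messenger RNAs start with a stretch of pyrimidines, the terminal oligopyrimidine tract, through which the kinase mTOR controls their translation. In nervous tissue these are among the most abundant messages of neurons and glia alike.

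Each group was measured on 1 array in 1 colour, so no difference between groups has a replicate check, differences are descriptions without a test or a p-value. Values are log2 of the processed spot intensity minus the 75th percentile of the same array, called levels below, and a difference of 2 levels is a log2 difference. The Tg brainstem/cerebellum, WT brainstem/cerebellum and Tg spinal cord arrays lie on 1 slide and the WT spinal cord array on another, so slide and genotype cannot be told apart in the spinal cord. Between 59.2% and 64% of spots were well above background on each array, and none was saturated. The tissue labels were met by the marker genes: 7 of 7 spinal Hox genes were above background on both spinal cord arrays, with 3 of 7 on each brainstem/cerebellum array. The summed signal of 5 Purkinje cell genes was 12.7 and 25.6 times the 75th percentile on the Tg and WT spinal cord arrays, and 184 and 175 times on the Tg and WT brainstem/cerebellum arrays. In such bulk tissue, fewer cells of a type and less RNA per cell cannot be told apart.

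The probe sequences are shown first because probes of the same gene gave different answers in the spinal cord. The last 30 bases of each probe are written 5′ to 3′ as the files give them, with the polyadenylation hexamer AATAAA in capitals where it occurs. For Rplp1, the probes lie at chr9:61761086-61761145 (35% G and C) and chr9:61761259-61761318 (55%) in mm9, the build of the array's probe coordinates. For Rps10 they lie at chr17:27767367-27767426 (33.3%) and chr17:27767387-27767446 (50%), and share 40 bases. For Rps3a1 they lie at chr3:85941875-85941934 and chr3:85941887-85941946 (35% each, 48 shared bases) and at chr3:85943041-85943100 (45%). For Rps24, a small subunit protein, a probe of contiguous bases lies at chr14:25315021-25315080 (35%), and the brightest one spans chr14:25312695-25315015 (45%).
Rplp1 probe with 35% G and C: ttggccAATAAAgagctgaacctgtaaaaa
Rplp1 probe with 55% G and C: taggggctggtgggcctactccagcagctg
Rps10 probe with 33.3% G and C: gttgtattgAATAAActttaaagaaaaaca
Rps10 probe with 50% G and C: tcagtgaagttggagtttatgttgtattga
Rps3a1 first probe with 35% G and C: gatttttaatagtgacaAATAAAaagtcct
Rps3a1 second probe with 35% G and C: gtataaaatccagatttttaatagtgacaa
Rps3a1 probe with 45% G and C: agacatcctatgcgcagcaccagcaagtcc
Rps24 probe with 35% G and C: gagaggacaAATAAActaaaaagcttctac
Rps24 probe with 45% G and C: attggatacagccaaaggagtagatctgtg

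Start sites of members were read from RefSeq's promoter table (GRCm38.p6), in which 66 of the 87 genes had an entry. On the gene's own strand, 17 of these 66 genes (25.8%) held a run of at least 10 pyrimidine letters (C or T) between 10 bases before and 12 bases after the start, compared with 4.13% of 27025 genes of the table. The 4 members with the most run letters inside this window are shown, with 15 bases on either side of the start and the run letters inside the window in capitals. The runs of Rpl7a, Rpl15 and Rpl27a go on beyond the window. Rpl35 lies at chr2:39005117-39005146 on the minus strand, Rpl7a at chr2:26910792-26910821 on the plus strand, Rpl15 at chr14:18270972-18271001 on the minus strand and Rpl27a at chr7:109519180-109519209 on the plus strand.
Rpl35: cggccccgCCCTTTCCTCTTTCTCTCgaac
Rpl7a: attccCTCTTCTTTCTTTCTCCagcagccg
Rpl15: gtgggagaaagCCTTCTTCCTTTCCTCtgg
Rpl27a: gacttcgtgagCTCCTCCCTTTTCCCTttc

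The members were bright. Of 186 probes, 177 were well above background on all 4 arrays, and so were 84 of 87 genes at their brightest probe, which stands for the gene below. Of these, 82 lay above the 75th percentile on all 4 arrays. The median level of the 84 genes was 5.73 and 5.68 on the Tg and WT brainstem/cerebellum arrays, and 6.16 and 5.76 on the Tg and WT spinal cord arrays. At this scaling the family thus stood apart on the Tg spinal cord array, while the other 3 medians lay between 5.68 and 5.76. With scaling on spike-in control RNA, the members' median difference was 0.03 for Tg minus WT in spinal cord. For spinal cord minus brainstem/cerebellum in Tg mice it was 0.06. Member probes held 6.12% and 5.72% of the summed signal of all probes on the Tg and WT brainstem/cerebellum arrays, and 7.73% and 6.0% on the Tg and WT spinal cord arrays. This share does not depend on any scaling between arrays, and the same share in the authors' deposited values was 6.30% and 5.88%, and 7.59% and 5.85%. The large subunit held 4.38% and 3.41% on the Tg and WT spinal cord arrays, and the small subunit 3.34% and 2.58%.

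**Figure D1:**
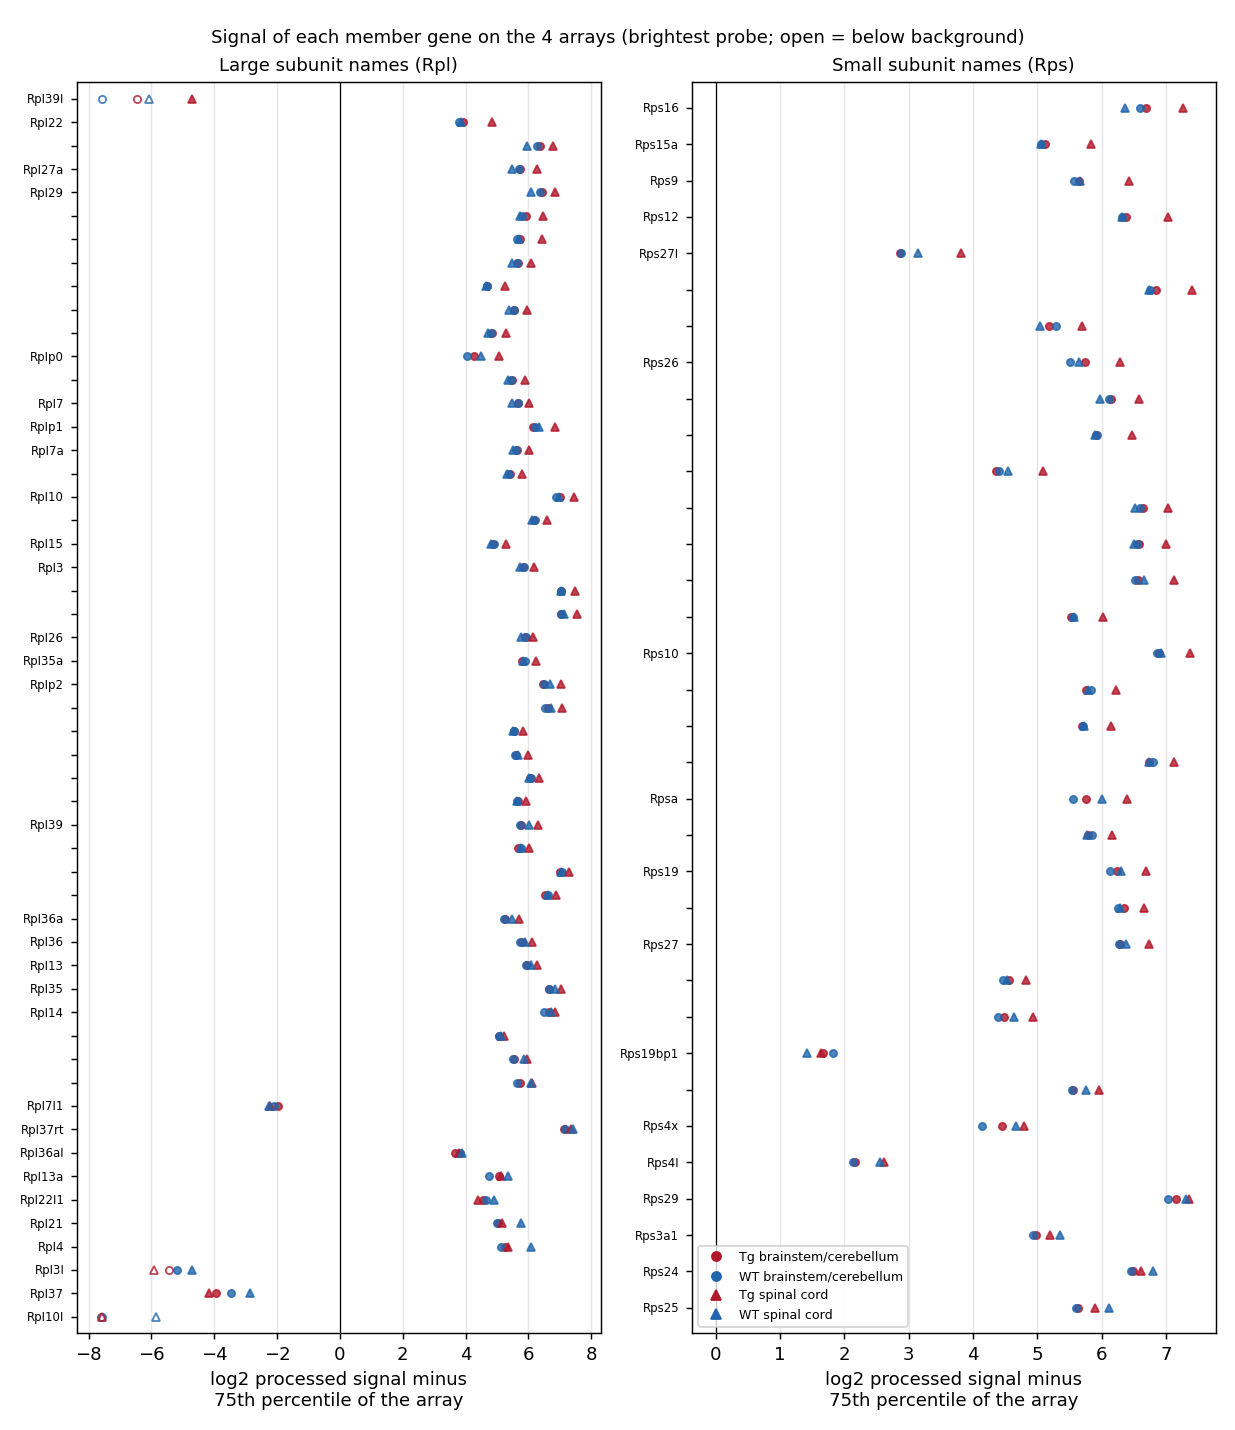
Level of each member gene (log2 processed signal minus the 75th percentile of the array, x axis) on the 4 arrays, with genes sorted down the page by the Tg minus WT difference in spinal cord and labelled where the text describes them; red is Tg, blue is WT, circles are brainstem/cerebellum, triangles are spinal cord, and open symbols are below background. The red triangle of Tg spinal cord is the rightmost symbol for 72 of the 84 genes above background on all 4 arrays.

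Gene by gene, the Tg spinal cord array gave the highest of the 4 levels for 72 of 84 members, against 29.5% of 16348 named genes above background on all arrays. The WT spinal cord array was highest for 10 members, against 27.5% of all genes. The Tg and WT brainstem/cerebellum arrays were each highest for 1 member, against 13.6% and 29.4%. With scaling on the spike-in control RNA in place of the 75th percentile, the Tg spinal cord array remained the one with most highest values, 45 of 84 members against 15.3% of all genes. The WT spinal cord array was then highest for 29 members, against 37.1%. The Tg and WT brainstem/cerebellum arrays were then highest for 9 and 1, against 21.7% and 25.9%.

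Tg and WT mice were compared first in the brainstem/cerebellum, where the family was nearly level. The median difference over 84 genes was 0.03, with quartiles of -0.02 and 0.09, compared with -0.06 over all 16799 named genes above background on both arrays and -0.11 over 1092 genes in the signal range of the members. The median of the large subunit was 0.02 and that of the small subunit 0.04. Of the 84 genes, 57 lay above 0, against 40.6% of all genes. None was 1.5-fold higher or lower, against 6.43% and 2.2% of all genes, nor 2-fold higher or lower, against 2.71% and 0.292%. At a log2 difference of at least 0.32 0 were higher and 1 was lower, against 13.2% and 10.9%.

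This spread was set beside the technical error. Probes spotted 10 times per array, 65 in 48 member genes, gave an SD of 0.06 between spots within an array and an SD of 0.08 for a difference between single spots. Of the 84 genes, 76 lay within 2 such SDs of 0, a limit of 0.16, with 6 above and 2 below it. The 65 probes themselves have smaller errors, as means of 10 spots. Of these, 19 were higher and 6 lower on the Tg array by more than 2 standard errors, with a median of 0.02 and a range from -0.10 to 0.22. The error covers repeated spots within an array and leaves out differences between animals, extractions and hybridisations.

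**Figure D2:**
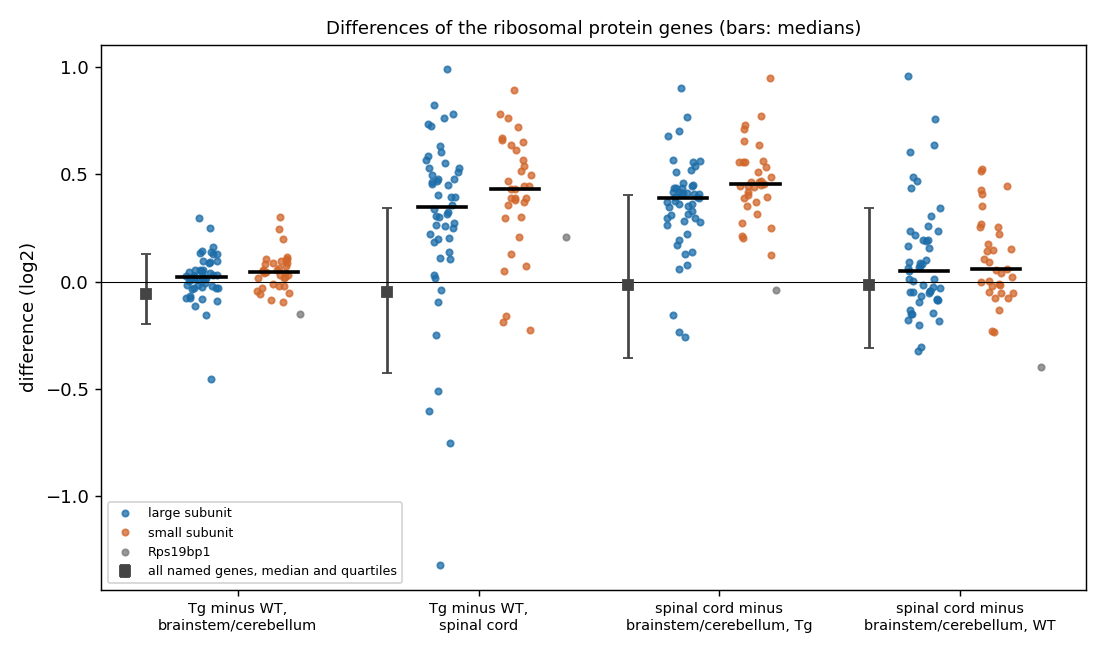
Differences (log2, y axis) of the member genes in the 4 comparisons of arrays, with blue points for the large subunit, orange points for the small subunit, a grey point for Rps19bp1, black bars for the medians of the subunits, and a grey square with quartiles for all named genes. Points crowd around 0 in the brainstem/cerebellum comparison and lie mostly above 0 in the spinal cord comparison and in the tissue comparison within Tg mice.

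The members at the upper end in brainstem/cerebellum included Rps4x, the X-linked copy of Rps4, at 4.44 and 4.14 on the Tg and WT arrays, a difference of 0.30. Rpl13a, which in human myeloid cells is released from the ribosome to silence inflammatory messages, had 5.05 and 4.76, a difference of 0.30. The stalk gene Rplp0 had 4.28 and 4.03, a difference of 0.25. All 3 lay higher on the Tg array, by a log2 difference of less than 0.32. Rps26 (0.24), Rpsa (0.20), which also serves as a laminin receptor, and Rpl14 (0.16) complete the 6 largest. The other Rpsa probe gave -0.02, so this difference was not shared by the probes.

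At the lower end stood Rpl37 at -3.94 and -3.48 on the Tg and WT brainstem/cerebellum arrays, a difference of -0.45. Its single probe was dim on all 4 arrays. Rpl37rt, a retrotransposed copy of Rpl37, had 7.14 and 7.17 at its own probe, and whether messages of parent and copy bind both probes was not tested. Rpl36al (-0.16), Rps19bp1 (-0.15), Rpl22l1 (-0.12) and Rpl35a (-0.09) were also among the lowest. Rpl36al lay just beyond the limit of 0.16 set by repeated spots, and the other 3 within it.

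In the spinal cord, where the genotypes lie on different slides, most members stood higher on the Tg array. The median difference over 84 genes was 0.39, with quartiles of 0.20 and 0.54 and a range from -1.32 to 0.99, compared with -0.05 over all 17087 named genes above background on both arrays and -0.20 over the 1092 genes in the members' signal range. Of the 84 genes, 74 lay above 0, against 46.6% of all genes. At a log2 difference of at least 0.32, 51 were higher and 4 lower, against 26.2% and 30.9% of all genes. At 1.5-fold, 18 were higher and 3 lower, against 16.2% and 17.7%. At 2-fold, 0 were higher and 1 was lower, against 8.49% and 6.38%. Most members thus shared the direction.

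Scaling matters for this value. With spike-in scaling the median of all named genes moved to -0.41 and that of the members to 0.03, with 49 of 84 above 0. At 1.5-fold, 1 member was then higher and 5 were lower, against 9.17% and 37.2% of all genes. The members' median exceeded the median of all genes by 0.44 under both scalings. Each scaling shifts all genes of an array alike, so this excess could not differ between them. The excess was 0.32 with quantile normalization and 0.52 in the authors' deposited values. In brainstem/cerebellum the same excess ran from 0.09 to 0.13 over these settings.

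Both subunits took part in spinal cord. The large subunit had a median of 0.35 over 50 genes, with 27 (54%) higher and 4 (8%) lower by at least 0.32. The small subunit had a median of 0.43 over 33 genes, with 24 (72.7%) higher and 0 lower. Over all genes these shares were 26.2% and 30.9%. At 1.5-fold, 9 large subunit genes (18%) were higher and 3 (6%) lower. In the small subunit 9 (27.3%) were higher and 0 lower, against 16.2% and 17.7% of all genes. The large minus small difference of medians was -0.09, smaller than the spread among genes of either subunit, whose quartiles were 0.19 and 0.52 for the large and 0.30 and 0.61 for the small one. Among the 65 probes with repeated spots, 64 were higher on the Tg array by more than 2 standard errors of those spots. Their median was 0.46, with standard errors from 0.01 to 0.04. These errors cover spots within an array and leave out differences between arrays and slides. Spike-in scaling lowers each of these differences by 0.36. The same count is not given for other probes in either tissue.

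The stalk genes had positive differences at their brightest probes. Rplp0 had 5.05 and 4.50 on the Tg and WT spinal cord arrays, a difference of 0.55. Rplp1 had 6.83 and 6.32, a difference of 0.51. Rplp2 had 7.03 and 6.67, a difference of 0.36. The Tg spinal cord array gave the highest level of the 4 arrays for each of the 3 genes. Rpsa had 6.39 and 6.0, a difference of 0.39, and 0.63 at its other probe.

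Among large subunit genes, Rpl22, whose protein binds RNA in T cell development as well as in the ribosome, had the largest difference of the family. It stood at 4.83 and 3.84 on the Tg and WT spinal cord arrays and at 3.93 and 3.79 on the Tg and WT brainstem/cerebellum arrays. The difference in spinal cord was 0.99, close to 2-fold, and only the Tg spinal cord array was apart from the other 3. Rpl27a had 6.27 and 5.49 on the Tg and WT spinal cord arrays, a difference of 0.78, and Rpl29 (0.76) followed.

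Among small subunit genes, Rps16, a core protein of that subunit, had 7.25 and 6.36 on the Tg and WT spinal cord arrays, a difference of 0.89. The other Rps16 probe gave 0.40. Rps15a had 5.84 and 5.05, a difference of 0.78. In brainstem/cerebellum the differences of Rps16 and Rps15a were 0.10 and 0.07, within the limit set by repeated spots.

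The lowest members in spinal cord were large subunit genes for the most part. Rpl37 had -4.17 and -2.85 on the Tg and WT arrays, a difference of -1.32 at its dim probe. Rpl4, whose protein lines the exit tunnel for new peptides, had 5.33 and 6.08, a difference of -0.75. Rpl21 had 5.16 and 5.76, a difference of -0.60. For Rpl4 and Rpl21 the WT spinal cord array stood above the other 3 arrays, which lay at 5.12 to 5.33 for Rpl4 and at 5.0 to 5.16 for Rpl21.

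Rpl22l1 (-0.51), Rpl13a (-0.25) and Rps25 (-0.22) complete the 6 lowest. The second probes of Rpl21 and Rps25 gave 0.19 and 0.66, the opposite direction. The probes that stand for Rpl21, Rpl22l1 and Rps25 each held 35% G and C, and that of Rpl13a 45%. Among the highest genes, the probes of Rpl22 and Rpl29 held 55%, that of Rps16 53.3%, that of Rps15a 45% and that of Rpl27a 43.3%.

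The base composition of the probe moved with the spinal cord difference over the whole family. Among the 177 member probes above background on all arrays, the 22 with under 36% G and C had a median Tg minus WT difference of -0.40 in spinal cord, with 6 above 0. The 35 probes from 36% to under 44% had 0.30, the 70 from 44% to under 50% had 0.34, and the 50 with 50% or more had 0.56, all 50 above 0. Of all other probes, 2873 of 7003 with under 36% and 2446 of 5340 with 50% or more lay above 0. Across the member probes, which are not independent replicates and share arrays and genes, Pearson's r with the G and C content was 0.53 in spinal cord and -0.07 in brainstem/cerebellum.

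Of the 1511 other probes in the members' signal range, those with under 36% had a median of -0.36 in spinal cord and those with 50% or more a median of 0.00, with r of 0.22. Member probes therefore stood close to these other probes only under 36% G and C, and 0.56 above them at 50% or more. From 36% to under 44%, the medians of member and other probes were 0.30 and -0.21. From 44% to under 50%, they were 0.34 and -0.14. The member probes were not limited to this signal range and include dim ones. Over genes measured with probes of at least 45% G and C, a choice made after seeing the data, the members' median was 0.45 in spinal cord and that of all genes 0.02.

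**Figure D3:**
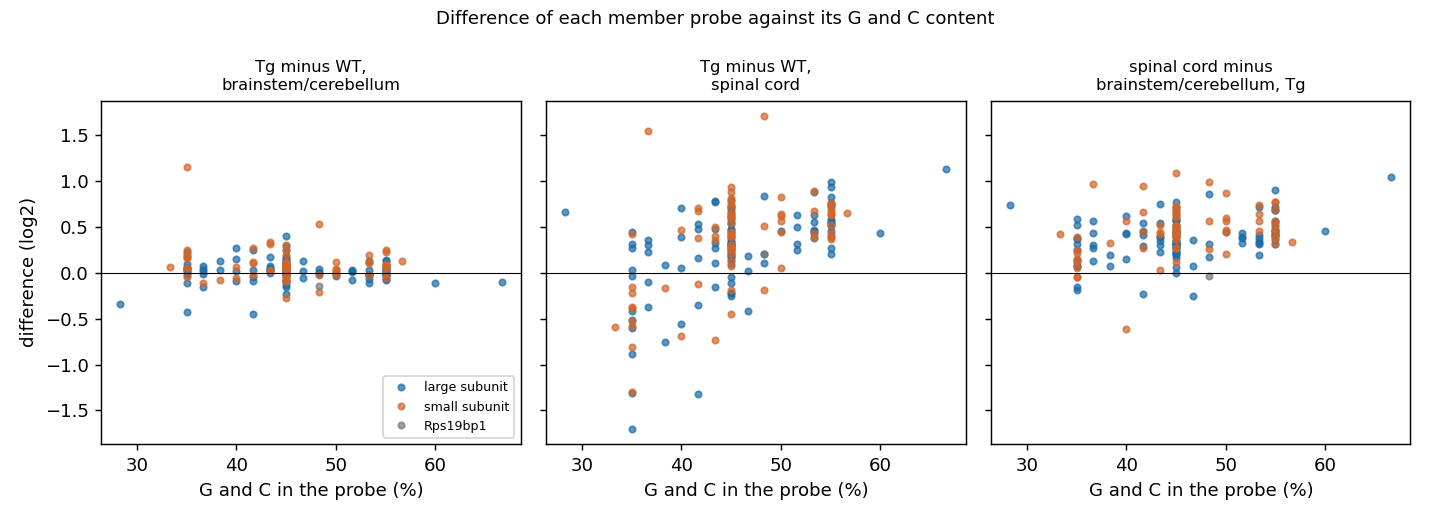
Difference (log2, y axis) of each of the 177 member probes above background against the share of G and C in the probe (percent, x axis), for Tg minus WT in brainstem/cerebellum, Tg minus WT in spinal cord, and spinal cord minus brainstem/cerebellum in Tg mice. In the spinal cord panel probes with under 36% lie mostly below 0 and all 50 probes with 50% or more above 0, while the brainstem/cerebellum panel is flat.

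Which array stood apart also differed with the probe. At the 50 probes with 50% or more G and C, the Tg spinal cord array was the highest of the 4 for all 50, and for 39 of 50 with spike-in scaling. At the 22 probes with under 36%, the WT spinal cord array was the highest for 15 and the Tg spinal cord array for 6. These counts by G and C content are not given for other probes. The part of slide, labelling and RNA quality in this pattern was not tested.

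Probes of the same gene show it directly. At the probe of Rplp1 with 55% G and C printed above, the levels were 6.15 and 6.22 on the Tg and WT brainstem/cerebellum arrays, and 6.83 and 6.32 on the Tg and WT spinal cord arrays. At its probe with 35%, which holds AATAAA near its end, they were 5.69 and 5.47, and 5.77 and 7.08. The spinal cord difference was 0.51 at the first and -1.31 at the second, and the WT spinal cord array was the highest of the 4 at the second probe alone.

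The pair of Rps10 probes shares 40 bases, and the one with AATAAA lies 20 bases further along. At the probe with 50% the levels were 7.36 and 6.92 on the Tg and WT spinal cord arrays, a difference of 0.45. At the probe with 33.3% they were 5.65 and 6.24, a difference of -0.59. In brainstem/cerebellum the same probes gave 0.03 and 0.06, so they differed by less than the limit of repeated spots there.

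The Rps3a1 probes with 35% each share 48 bases and are 12 bases apart. The one that holds AATAAA near its end had 4.56 and 5.86 on the Tg and WT spinal cord arrays, a difference of -1.30. The other one had 5.19 and 5.35, a difference of -0.16, and another probe, with 45%, had 5.25 and 4.62, a difference of 0.63. The remaining probe, also with 45%, had 2.24 and 2.69, a difference of -0.45. Probes of equal base composition thus had unequal differences in this gene. Pairs with overlapping coordinates were counted only among member probes of contiguous bases with a mean level above 0, so other overlaps are left out. Among these 9 pairs, 4 were over 0.5 apart in spinal cord and 0 in brainstem/cerebellum. The cut in spinal cord fell between the pair of Rpl14, 0.51 apart, and that of Rpl36a, 0.49 apart.

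**Figure D4:**
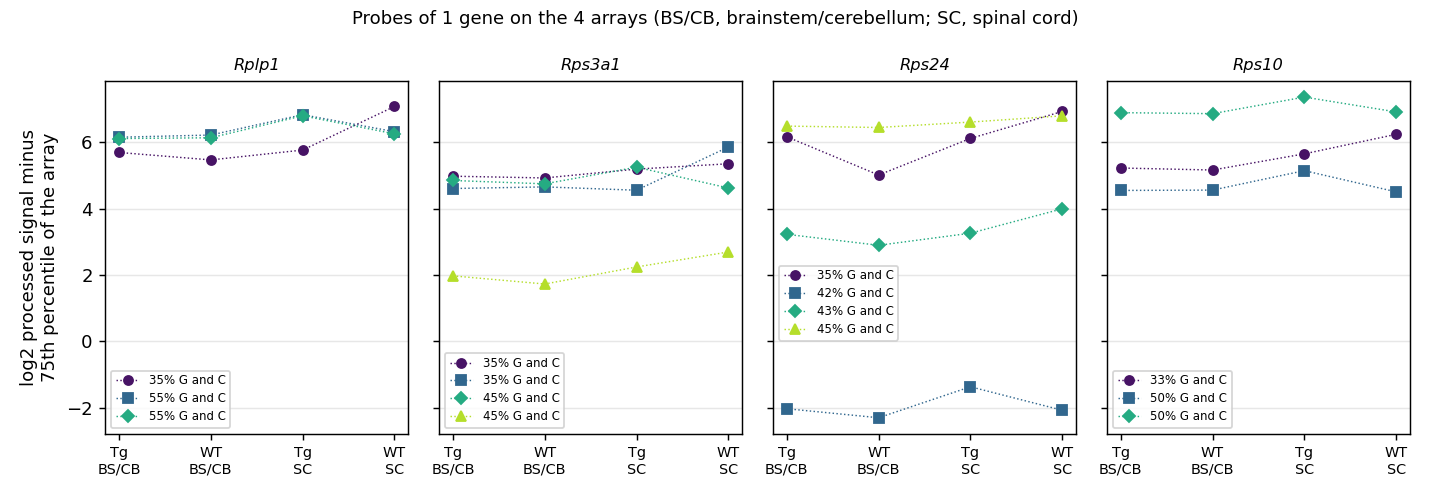
Levels (log2 processed signal minus the 75th percentile of the array, y axis) of the probes of Rplp1, Rps3a1, Rps24 and Rps10 on the 4 arrays (x axis, Tg left of WT within each tissue), 1 symbol and dotted line per probe, labelled with its G and C content. For Rplp1 and Rps10 the probe with less G and C is highest on the WT spinal cord array and the others on the Tg spinal cord array.

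Over the family, 57 genes had several probes above background with a mean level above the 75th percentile. Their probes were over 0.5 apart in 27 of 57 genes in the spinal cord comparison, against 21.9% of all such genes, and in 1 of 57 in brainstem/cerebellum, against 3.87%. In 30 genes the probes differed by at least 8 percentage points of G and C. The probe with least G and C lay below the one with most in 23 of these 30 genes in spinal cord, against 67.4% of all such genes, and in 14 of 30 in brainstem/cerebellum, against 51.2%. The medians in spinal cord were -0.14 at the probes with least and 0.43 at those with most.

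Probes of 11 genes differed by over 1 in spinal cord. Beside Rplp1, Rps3a1, Rps10 and Rps24, these included Rpl7a (0.50 and -0.89), Rps15a (from -0.69 to 0.78), Rpl26 (from -0.42 to 0.59), Rps9 (from 0.68 to 1.71) and Rpl13 (from -1.70 to 0.66). Of the genes named here, Rps9 alone had all its probes above background above 0. For Rpl13, Rps15a, Rpl26, Rps9 and Rps24 the extremes include dim probes below the 75th percentile. Rps24 was the only gene with probes over 1 apart in brainstem/cerebellum.

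The hexamer AATAAA or ATTAAA, searched on the probe's own strand, was present in 39 of 186 member probes (21%) and in 13.4% of all probes. The 38 of these above background on all arrays had a median spinal cord difference of 0.19, and the 139 without it one of 0.44. In brainstem/cerebellum the medians were 0.05 and 0.03. Other probes in the members' signal range also differed in spinal cord, with medians of -0.28 for 375 with the hexamer and -0.11 for 1136 without it. The hexamer and the G and C content of the probe were not separated here. A match describes only the probe's letters.

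Rps24, mutated in the inherited anaemia of Diamond and Blackfan in humans, had probes with opposite differences in the tissues. Its brightest probe had 6.49 and 6.45 on the Tg and WT brainstem/cerebellum arrays, and 6.61 and 6.80 on the Tg and WT spinal cord arrays. Its probe with 35% had 6.17 and 5.01 in brainstem/cerebellum, a difference of 1.15, and 6.12 and 6.93 in spinal cord, a difference of -0.81. The 2 Tg arrays lay close together at this probe and the 2 WT arrays lay far apart, below and above them.

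The tissue comparison within Tg mice lies on 1 slide. The spinal cord array of Tg mice stood above their brainstem/cerebellum array for nearly every member. The median difference over 84 genes was 0.41, compared with -0.02 over all 16897 named genes, and 80 of 84 lay above 0, against 48.6% of all genes. At a log2 difference of at least 0.32, 60 were higher in spinal cord and 0 lower, against 28.9% and 27% of all genes. At 1.5-fold 10 were higher and 0 lower, against 18.7% and 14.8%, and at 2-fold 0 were higher and 0 lower, against 10.1% and 6.24%. The median was 0.39 for the large and 0.46 for the small subunit. With spike-in scaling the members' median was 0.06 and that of all genes -0.37. The members' median exceeded that of all genes by 0.43 under both scalings, which cannot differ in this. The excess was 0.18 with either quantile normalization and 0.27 in the authors' deposited values.

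Probes of a gene mostly pointed the same way in this comparison. Of 60 genes with several probes above background, 55 had all of them above 0, against 28.4% of all 6908 such genes. For Tg minus WT in spinal cord it was 34 of 60, against 27.2%. Probes were over 0.5 apart in 2 of 57 genes, against 12.4% of all such genes. The probe with least G and C lay below the one with most in 23 of 30, against 48.5%. The r with G and C content was 0.34, and the median was 0.18 for probes with under 36% and 0.46 for those with 50% or more.

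Rps27l, a paralog of Rps27 that p53 induces, had 3.81 in the spinal cord and 2.86 in the brainstem/cerebellum of Tg mice, a difference of 0.95. Rpl22 had 4.83 and 3.93, a difference of 0.90. Rplp0 (0.77) and Rps9 (0.77) complete the 4 largest. These 4 genes also stood 0.55 to 0.99 above WT in the spinal cord, a value that shares the Tg spinal cord array with this comparison. The 4 lowest were Rpl7l1 (-0.26), Rpl37 (-0.23), Rpl22l1 (-0.16) and Rps19bp1 (-0.04), of which Rpl7l1 takes part in ribosome assembly.

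In WT mice the same tissue comparison crosses slides. Its median over 85 genes was 0.05, with 50 above 0, against 48.6% of 16752 named genes. At a log2 difference of at least 0.32, 14 were higher in spinal cord and 2 lower, against 26.1% and 24.1%. At 1.5-fold 4 were higher and 0 lower, against 15.9% and 11.3%, and at 2-fold 0 were higher and 0 lower, against 6.75% and 4.24%. Probes of a gene were over 0.5 apart in 20 of 57 genes, against 20.3%, and the probe with least G and C lay below the one with most in 5 of 30, against 31.9%. The 4 were Rpl4 (0.96), Rpl21 (0.76), Rpl37 (0.64) and Rpl13a (0.60), all of them among the 6 lowest for Tg minus WT in spinal cord, a comparison that shares the WT spinal cord array. Rps19bp1 (-0.40) and Rpl29 (-0.30) were among the 4 lowest. The median turned to between -0.06 and -0.12 with median scaling, with both quantile normalizations and in the authors' deposited values.

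Between tissues the genotype differences agreed little gene by gene within the family. Over 84 members, Pearson's r between the brainstem/cerebellum and the spinal cord difference was 0.28, compared with 0.59 over 16348 named genes. These comparisons share no array, genes are not independent replicates, and the members' narrow spread of differences in brainstem/cerebellum limits the value.

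Paralogs and copies were set beside their parent genes. Rpl22l1 stood at -0.51 in spinal cord and Rpl22 at 0.99, the widest gap among these pairs, with probes of 35% and 55% G and C. Rps27l stood at 0.67 and Rps27 at 0.36. Rps4l stood at 0.07 and Rps4x at 0.13. Rpl36al stood at -0.10 and Rpl36a at 0.22, while Rpl7l1 stood at 0.02 and Rpl7 at 0.53. In these pairs the copy had the lower value except for Rps27l, and in Rpl37rt (-0.04) and Rpl37 (-1.32) the copy had the higher one. Here each value is that of the gene's brightest probe.

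The germline and muscle paralogs were dim. Rpl10l, expressed mainly in testis, was not well above background on any array, and its parent Rpl10 had a spinal cord difference of 0.48. Rpl39l, another testis paralog, was above background on the Tg spinal cord array alone, at least 2.11-fold above WT, with measured levels of -4.70 and -6.07, while Rpl39 stood at 0.27. Rpl3l, the heart and skeletal muscle paralog of Rpl3, was above background on both WT arrays and not on the Tg arrays, at least 1.17-fold lower in Tg brainstem/cerebellum and at least 1.51-fold lower in Tg spinal cord. Rpl3 stood at 0.45 in spinal cord. Such a bound sets the brighter level against the lowest signal well above background on the other array, and the cross-binding of near-identical messages to these probes was not tested.

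Rps12 and Rps19 had no copy among the members, and Rps19bp1 encodes a protein that binds Rps19. Rps12 stood at 0.72 and Rps19 at 0.38 in spinal cord, and Rps19bp1 at 0.21. Members whose probes are assigned to another chromosome than the gene, 7 probes of Rpl13, Rpl36, Rps27 and Rps29, were kept, and the binding of messages from gene copies to them was not tested. Of these 7 probes, 6 had differences from 0.05 to 0.55 in spinal cord, and 1 of Rps29 had -0.19.

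Other genes of the translation machinery were set beside the members. The ribosomal proteins Fau and Rack1, which the name rule leaves out, stood at 0.06 and -0.01 in brainstem/cerebellum and at 0.55 and 0.60 in spinal cord. Their values thus lay in the range of the members in both tissues. The 77 mitochondrial ribosomal proteins, which build the separate ribosome of mitochondria, had medians of -0.17 in brainstem/cerebellum, with 8 above 0, and -0.16 in spinal cord, with 13 above 0. Over all genes, 40.6% lay above 0 in brainstem/cerebellum and 46.6% in spinal cord. At 1.5-fold in spinal cord, 1 of the 77 was higher and 7 were lower, against 16.2% and 17.7% of all genes. Mrpl35 (-1.04) and Mrpl18 (-0.93) were among the 7.

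The 45 genes of ribosome assembly and RNA polymerase I take part in making new ribosomes in the nucleolus. Their medians were -0.03 in brainstem/cerebellum and 0.12 in spinal cord. In spinal cord 2 were at least 1.5-fold higher and 2 lower, against 16.2% and 17.7% of all genes. The helicase gene Ddx21 stood at 0.51 in brainstem/cerebellum and at 0.87 in spinal cord. Dkc1, which modifies ribosomal RNA, stood at 0.03 and -1.66. In spinal cord the median of this list lay between that of all genes and that of the members.

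The 17 elongation factors and other genes with a terminal oligopyrimidine tract, which share the control of the members, had medians of 0.01 and 0.16 in brainstem/cerebellum and spinal cord. In spinal cord 2 were at least 1.5-fold higher, the RNA host gene Snhg1 at 1.22 and the poly(A)-binding protein gene Pabpc1 at 1.16, and 1 was lower, the elongation factor gene Eef1a1 at -0.82. Over all genes, 16.2% were higher and 17.7% lower by this fold. Within Tg mice all 17 stood higher in spinal cord than in brainstem/cerebellum, against 48.6% of all genes, with a median of 0.25. The 32 initiation factors had medians of -0.09 and 0.04 in brainstem/cerebellum and spinal cord.

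Among 22 regulators of ribosomal protein production, the median was -0.08 in brainstem/cerebellum and -0.11 in spinal cord. In spinal cord 5 were at least 1.5-fold higher and 5 lower, against 16.2% and 17.7% of all genes. Eif4ebp1, the mTOR-controlled repressor of translation, had -0.23 and -1.67 on the Tg and WT brainstem/cerebellum arrays, and 1.35 and -1.0 on the Tg and WT spinal cord arrays, differences of 1.44 and 2.35. Myc, a transcription factor that drives ribosome production, had differences of 0.34 and 2.15. Rptor, a subunit of the mTOR complex, stood at 0.06 and -1.09. Eif2ak2, an interferon-induced kinase that halts initiation, stood at 0.85 and 1.08.

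**Figure D5:**
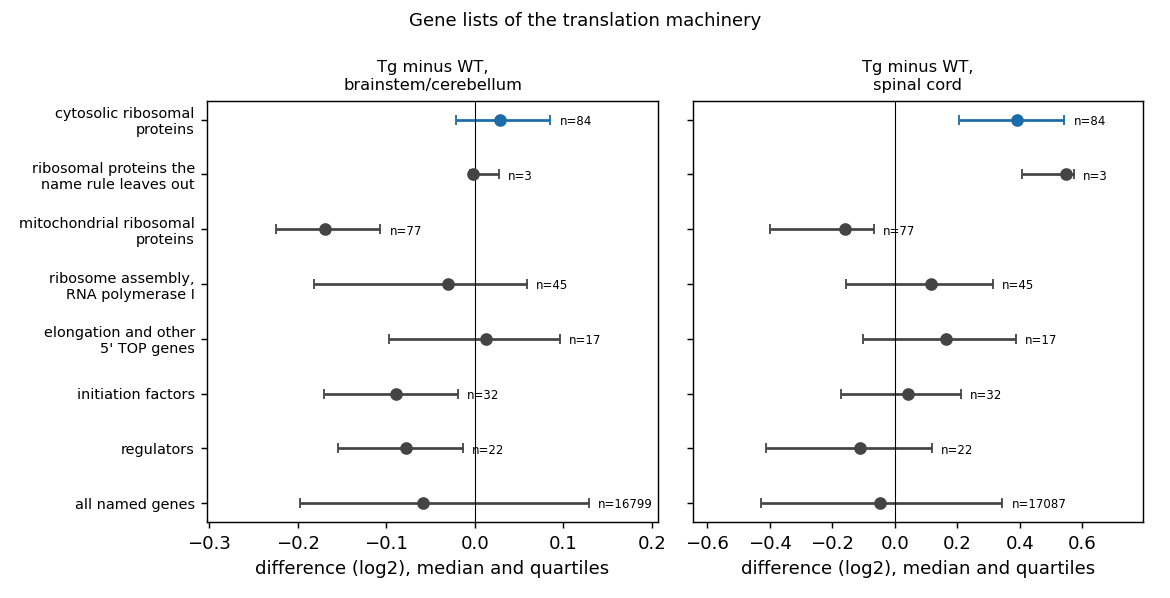
Median (point) and quartiles (bars) of the Tg minus WT difference (log2, x axis) of the member genes, of other lists of the translation machinery and of all named genes, in brainstem/cerebellum and in spinal cord, with the number of genes above background. The members' quartiles lie from 0.20 to 0.54 in spinal cord and those of the mitochondrial ribosomal proteins from -0.40 to -0.07.

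Cell type markers moved with the same comparison. In spinal cord, 8 of 10 microglia and macrophage markers were at least 1.5-fold higher and 1 lower on the Tg array. Over all genes these shares were 16.2% and 17.7%. The summed signals of these markers were 535 and 133 times the 75th percentile on the Tg and WT arrays. In brainstem/cerebellum, where the members were nearly level, 8 of 10 were higher as well, against 6.43% of all genes, with sums of 170 and 79.5. All 6 proliferation markers were above background on the Tg spinal cord array and 5 of 6 on the WT one, with sums of 4.0 and 0.81. Of 8 neuron markers 5 were at least 1.5-fold lower in Tg spinal cord and 0 higher, against 17.7% and 16.2% of all genes. The neuron marker sums were 261 and 473. The lymphocyte markers Cd3g, Cd79a, Cd8a and Ms4a1 were each below background on at least 1 array, and the 7 genes of the lymphocyte list summed to between 0.74 and 1.67. The part of these cells in the members' difference was not tested.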

How the data were processed

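RNA from the tissues was extracted with TRIzol and column purification, amplified, labelled with Cy3 and hybridised to 1-colour Agilent mouse arrays, 1 array per group, per the labels' protocols. The deposited intensity used here is the processed signal of each spot, already background-subtracted by Agilent Feature Extraction, version 10.7.1.1 per the file headers and 9.5.1.1 per the submitters' processing notes. The authors' deposited series table also holds linear intensity. Its 4 column medians are equal at 30.4, and it correlates at 0.999983 (Pearson) with quantile-normalized processed signals.

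From the deposited intensity, spots of a probe were averaged, and log2 of the signal minus the 75th percentile of the array was taken. The brightest probe stood for a gene, and a gene entered a comparison if that probe passed the scanner's background test on both arrays (well above background). No replicate exists, so differences are descriptions. Repeated spots gave the technical error. The number of arrays limits the precision. The difference script was tested on simulated data.

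Alternatives were spike-in scaling (7 probes), median scaling, quantile normalization, normexp (offset 50) with quantile normalization, the authors' values, other ways to combine probes, other filters, other members and other fold thresholds. Probes with at least 45% G or C were an alternative chosen after seeing the data. Python 3.11.15, numpy 2.4.6, pandas 2.3.3, matplotlib 3.10.9, R 4.3.3 and limma 3.58.1 were used.

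The members and lists were chosen with earlier results of these data known. Named were the 6 largest and 6 smallest differences in each genotype comparison, the 4 largest and 4 smallest in each tissue comparison, the stalk genes and Rpsa, paralogs and copies with their parents, genes whose probes differed by over 1, genes below background on an array, genes with opposite differences of at least 0.32 (log2) in the tissues, and up to 4 genes of each other list per genotype comparison. Rpl35, Rpl15, Rpl36, Rps29 and Rpl37rt were named after their values were seen. Values of some genes that meet these rules are not reported here, and counts and medians include them. The copies of members that carry pseudogene names had 5 genes above background, with median differences of -0.04 in brainstem/cerebellum and -0.16 in spinal cord. The infiltrating myeloid, oligodendrocyte, astrocyte, endothelial, granule cell, muscle and choroid plexus marker lists were measured as well and are given with the other observations.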

Additional observations from a re-analysis of the deposited data

Results flagged for a closer look

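3 probes of members had differences of opposite sign in the tissues, each by at least 0.32 on the log2 scale in both. The probe of Rps24 with 35% G and C stood at 1.15 for Tg minus WT in brainstem/cerebellum and at -0.81 in spinal cord. Another Rps24 probe, with 43.3%, stood at 0.33 in brainstem/cerebellum and at -0.74 in spinal cord. A dim Rpl13 probe with 28.3% stood at -0.34 in brainstem/cerebellum and at 0.66 in spinal cord, while the brightest Rpl13 probe stood at 0.05 and 0.20. With 1 array per group, the difference between the tissues was not tested.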

How the results depend on the processing

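With 1 array per group, no array could be left out, and differences under 0.16 lie within the error of single spots, a limit that is smaller for probes with repeated spots. No paired analysis was possible because each group has 1 array. The large minus small difference of medians moved by less than the spread among genes under all alternatives run. Restriction to probes above background on all 4 arrays, or leaving out Rps19bp1 and the paralogs and copies other than Rpl37rt, left the medians and counts close to their reported values. The alternatives below moved them, and the cause was not tested except where a setting itself changes the threshold or the number of units counted. Percentages in parentheses are shares of all named genes, or of all probes, called in the same setting. Spike-in scaling gave a members' median of 0.033 in the spinal cord genotype comparison with 1 gene at least 1.5-fold higher (9.17%) and 5 lower (37.2%), and of 0.056 in the tissue comparison of Tg mice with 1 higher (11%) and 2 lower (33.5%). Median scaling gave -0.15 in brainstem/cerebellum with 1 lower (6.29%), and -0.060 between tissues of WT mice with 2 higher (12.7%). Quantile normalization gave 1 lower (3.69%) in brainstem/cerebellum, 0.28 with 7 higher (15.9%) in spinal cord, 0.14 with 2 higher (18.7%) between tissues in Tg mice and -0.092 with 2 higher (14.5%) in WT mice. Normexp with quantile normalization gave 0.30 with 11 higher (11.2%) in spinal cord, 0.15 with 2 higher (13.3%) between tissues in Tg mice and -0.10 with 2 higher (8.86%) in WT mice. The authors' deposited values gave 1 lower (3.63%) in brainstem/cerebellum, 0.49 in spinal cord, 0.26 with 5 higher (19.2%) between tissues in Tg mice and -0.12 with 2 higher (14.7%) in WT mice. Counting every probe gave 1 higher (6.79%) in brainstem/cerebellum, 50 higher (16.7%) and 11 lower (17.7%) of 178 probes in spinal cord, 33 higher (17%) and 1 lower (15.7%) between tissues in Tg mice, and 20 higher (15.8%) and 1 lower (12.4%) in WT mice. Taking the mean of a gene's probes gave 7 higher (15.3%) between tissues in WT mice. Without a filter on dim probes, 1 gene was higher (10.5%) in brainstem/cerebellum and 5 were lower (19%) in spinal cord. With probes of at least 45% G or C, 0 were lower (15%) in spinal cord and 1 was higher (14.6%) between tissues in WT mice. At 2-fold, 0 were higher and 1 lower in spinal cord, and 0 were higher between tissues in Tg and in WT mice. At a log2 difference of at least 0.32, 1 was lower in brainstem/cerebellum, 51 were higher in spinal cord, 60 were higher between tissues in Tg mice, and 14 were higher and 2 lower in WT mice. With spike-in scaling 49 of 84 genes lay above 0 in spinal cord, against 74 as reported, and the named genes that turned sign included Rpl13 (-0.16), Rpl14 (-0.22), Rpl36a (-0.13), Rpl39 (-0.085), Rps19bp1 (-0.15) and Rps4x (-0.23), and with quantile normalization Rps4x (-0.052). With the mean of a gene's probes they included Rpl13 (-0.13), Rpl14 (-0.12), Rpl7 (-0.079), Rpl7a (-0.20), Rplp1 (-0.086), Rps25 (0.22) and Rps4x (-0.12).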

Other observations

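Among the initiation factors, Eif2s3x, a subunit of the factor that brings the first tRNA, stood at 0.87 for Tg minus WT in spinal cord and Eif3l at 0.54. The helicase gene Eif4a2 stood at -0.60 and the cap-binding protein gene Eif4e at -0.47. Members with a pyrimidine run at the start site (17 genes) stood at a median of 0.45 in spinal cord, and the 49 without one a median of 0.38, which is less than the spread among genes of either set. In brainstem/cerebellum the medians were 0.02 and 0.04.

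The remaining marker lists, measured in the same arrays, had these medians for Tg minus WT in spinal cord over the genes above background. Infiltrating myeloid cells stood at 0.59 (4 of 6 genes), with a range from 0.06 to 6.12. Arg1 of that list was left out as below background on the WT array, with levels of 2.15 and -7.56 on the Tg and WT arrays. Oligodendrocytes stood at 0.18 (7 of 7), astrocytes at 0.34 (6 of 6) and endothelial cells at -0.40 (5 of 5). Genes of these lists went both ways, with ranges from -0.42 to 1.21, from -1.81 to 1.08 and from -1.84 to 0.65. Skeletal muscle stood at -0.86 (5 of 6), choroid plexus at -0.26 (4 of 5) and cerebellar granule cells at -0.64 (4 of 6). The choroid plexus genes ranged from -1.17 to 0.20. Their part in the members' difference was not tested.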
